A study of Homo sapiens with 4 samples.

Results

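HOX genes encode homeodomain transcription factors that sit side by side in the clusters HOXA, HOXB, HOXC and HOXD. The genes measured here were taken by name, as every gene with a platform symbol made of HOX, a cluster letter and a paralog number. Earlier results of these data were known when they were chosen. They numbered 27 of the 18132 genes on the array, read on 47 of 44988 probe sets. One of them, HOXA2, was in the HOXA cluster, and 10 were in HOXB, 9 in HOXC and 7 in HOXD. Other HOX genes were not analysed here. Where a gene had several probe sets, the one with the highest mean of the 4 values stands for it.

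The cells were U87MG, an established human glioblastoma line. In 1 group they carried a vector that overexpresses NeuroD2, a transcription factor with a basic helix-loop-helix domain that drives neurons to differentiate, and in the other the PCMV control vector. All cells were kept at 0.2% oxygen and RNA was taken 48 hours after transfection, so no group in normal oxygen enters the comparison. Each group had 2 samples that the labels call biological replicates, each hybridised to 1 PrimeView array (Affymetrix, 1 colour). The labels do not say how the cultures were kept apart, and p-values measure only the spread between these samples. Values are the log2 probe set values the authors deposited, so a difference of 1 is a doubling.

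During development HOX genes are switched on in the order in which they lie on the chromosome. Low paralog numbers mark the hindbrain and high numbers mark the lower trunk, limbs and tail. The forebrain keeps them silent through Polycomb complexes, and HOX transcripts are known to reappear in many glioblastomas. HOX proteins bind DNA together with PBX and MEIS partners, and retinoic acid is a classic inducer of the low-numbered genes.

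Sequence around the members shows how tightly they are packed. In RefSeq annotation HOXC4, HOXC5 and HOXC6 share a gene start on chromosome 12, and HOXB4 lies inside the span of HOXB3 on chromosome 17. Of the 27 genes, 10 had a promoter in the RefSeq promoter table (GRCh38.p14). The 250 bases before the start are shown for HOXC5, because its window is the same as that of HOXC4, and for HOXD10 and HOXD13, the HOXD genes with the largest differences. Capitals mark the letters CANNTG, the E-box read by basic helix-loop-helix factors, which reads the same on both strands.
HOXC5, chr12:54016638-54016887, plus strand: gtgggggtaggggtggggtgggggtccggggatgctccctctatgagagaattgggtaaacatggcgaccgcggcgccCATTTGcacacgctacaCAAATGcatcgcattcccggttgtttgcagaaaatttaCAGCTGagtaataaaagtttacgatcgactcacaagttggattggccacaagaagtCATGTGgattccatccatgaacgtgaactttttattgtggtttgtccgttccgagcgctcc
HOXD10, chr2:176116528-176116777, plus strand: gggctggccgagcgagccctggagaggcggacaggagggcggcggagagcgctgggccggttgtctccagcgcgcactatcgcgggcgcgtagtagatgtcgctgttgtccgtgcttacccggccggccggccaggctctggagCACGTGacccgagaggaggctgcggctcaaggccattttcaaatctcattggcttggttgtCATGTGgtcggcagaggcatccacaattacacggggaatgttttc
HOXD13, chr2:176092471-176092720, plus strand: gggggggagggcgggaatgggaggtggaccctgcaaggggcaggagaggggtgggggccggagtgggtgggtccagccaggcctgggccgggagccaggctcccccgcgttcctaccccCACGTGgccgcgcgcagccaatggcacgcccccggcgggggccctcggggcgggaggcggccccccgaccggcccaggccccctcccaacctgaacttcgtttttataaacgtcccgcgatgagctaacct

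These letters are common. CANNTG was present in 9 of the 10 HOX windows and in 61.8% of all 35116 promoter windows of the same length. The form CAGCTG was present in 2 of the 10, the shared window of HOXC4 and HOXC5, and in 14% of all windows. The form CAGATG, on either strand, was present in 1 of the 10, that of HOXB1, and in 12.2% of all windows. A match is a description of these letters and not of binding.

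MicroRNA genes lie between and within the same members. The 3 mature sequences below are shown because their genes neighbour or lie within the spans of genes described next. Capitals mark the seed, bases 2 to 8. The microRNAs themselves were not analysed here. MIR10A lies inside the span of HOXB3. MIR196A1 lies between HOXB9 and HOXB13, and MIR196A2 between HOXC10 and HOXC9. MIR615 lies inside the spans of HOXC4 and HOXC5. The 3 seeds differ from each other.
hsa-miR-10a-5p, chr17:48579904-48579926, minus strand: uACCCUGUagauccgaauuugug
hsa-miR-196a-5p, chr17:48632532-48632553, minus strand, and chr12:53991762-53991783, plus strand: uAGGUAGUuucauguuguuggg
hsa-miR-615-3p, chr12:54034010-54034031, plus strand: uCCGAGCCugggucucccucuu

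NEUROD2 itself was read first. Its brightest probe set is of the s_at kind, which can match transcripts of more than 1 gene. On that probe set NEUROD2 was at 7.37 and 7.82 (log2) on the NeuroD2 arrays, against 5.46 and 5.35 on the control arrays. The groups did not overlap, and the rise was 2.19 (adjusted p = 0.0044 by limma over all genes). Its other 2 probe sets differed by -0.21 and -0.07, with adjusted p-values of 0.511 and 0.682 in a fit of all probe sets. Averaged over its 3 probe sets the rise was 0.64 (adjusted p = 0.0131), and on the brightest it missed the threshold when control replicate 1 (2.25, adjusted p = 0.141) or control replicate 2 (2.14, adjusted p = 0.147) was left out. Markers of glial and glioma cells were read for the labelled cell type, each on its own probe set. VIM averaged 14.1 in both groups, and CD44 12.9 with NeuroD2 and 12.8 in controls. AQP4 averaged 3.34 with NeuroD2 and 3.27 in controls, and SOX2 4.60 and 4.47. GFAP, the astrocyte filament gene, was at 6.33 with NeuroD2 and 6.09 in controls. OLIG2 averaged 6.96 with NeuroD2 and 6.57 in controls (adjusted p = 0.0829 by limma), and S100B 4.91 and 4.74. NES was lower with NeuroD2, at 6.46 against 6.71 in controls. Of the 8 glioma markers none passed the test, and of 12 myeloid, endothelial and oligodendrocyte markers measured none passed either. Of 6 neuronal markers SNAP25 fell (-0.59, adjusted p = 0.0312 by limma) and 5 did not pass. Those 5 were SYT1 (-0.45), TUBB3 (-0.14), STMN2 (0.21), RBFOX3 (0.08) and ELAVL3 (0.04).

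The arrays differed in their spiked-in controls. The 18 hybridisation spike probe sets averaged 10.10 and 10.13 on the NeuroD2 arrays, against 9.56 and 9.90 on the control arrays. The 24 poly-A spike probe sets averaged 7.96 and 8.03 on the NeuroD2 arrays, against 6.95 and 7.98 on the control arrays, with control replicate 1 standing apart. The part of these differences in the results below was not tested.

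Levels of different probe sets are not comparable with each other, so HOX levels were set only against background. The array carries background probe sets with no human target, sorted by how many of their 25 bases are G or C. They ran from about 2.80 at 3 such bases to 11.0 at 25, so a probe set's own base composition, which was not used here, decides what counts as background. HOXB2, HOXB3, HOXB4, HOXB6, HOXC6, HOXD8 and HOXD10 were above the background probe set with 22 G or C bases (6.90 to 7.37) on all 4 arrays. That background probe set was itself 0.24 higher with NeuroD2, at a mean of 7.31 against 7.07 in controls. Others rich in G or C shared this direction, and from 18 such bases up control replicate 2 was the lowest array. At 25 bases the values were 11.00 and 10.78 with NeuroD2, against 10.79 and 10.40 in controls. At 3 bases they were 2.80 and 2.83, against 2.86 and 2.86. The part of this shift in the differences below was not tested. The threshold of 22 bases was chosen after the values were seen. Values of the 7 HOX genes above it lay between 7.52 and 10.3, while those of the other 20 genes lay between 3.21 and 7.02. None of the 27 was above the probe set with 25 G or C bases (10.4 to 11.0) on every array.

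**Figure D1:**
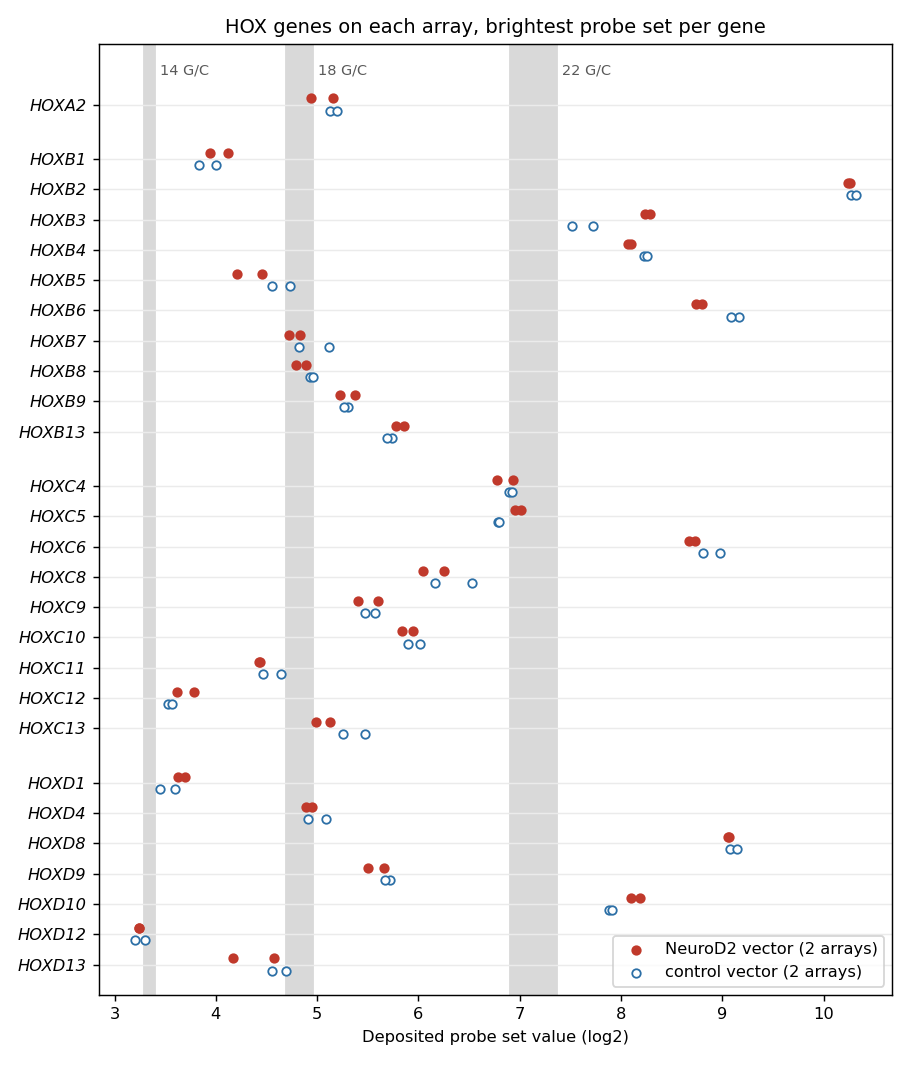
Deposited log2 value of each HOX gene's brightest probe set (x axis) by gene and cluster (y axis), with the 2 NeuroD2 arrays as filled points above the 2 control arrays as open points. Grey bands give the range of the background probe sets with 14, 18 and 22 G or C bases. The 7 genes right of the last band lie between 7.52 and 10.3, and HOXB3 has the widest gap between the groups.

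With 1 probe set per gene and all 4 arrays, HOXB3 was the only HOX gene past the adjusted threshold. In some alternative fits HOXB6 or HOXD10 passed as well, as given below. This gene of paralog group 3 patterns the hindbrain in mouse embryos. It was at 8.23 and 8.29 on the NeuroD2 arrays, against 7.52 and 7.72 on the control arrays. Both NeuroD2 arrays were above both control arrays. The rise was 0.64 on the log2 scale (95% interval 0.41 to 0.87), or 1.56-fold, with means of 8.26 ± 0.04 with NeuroD2 and 7.62 ± 0.15 in controls (SD, n = 2 each; limma adjusted p = 0.0267). All 4 probe sets of HOXB3 had a positive difference, at 0.64, 0.38, 0.31 and 0.20, and none overlapped between groups. Of all genes, 24.2% were higher with NeuroD2 without overlap. The 4 probe sets were read on the same arrays and are not independent of each other. In a fit of all probe sets only the brightest passed (adjusted p = 0.0355), while the other 3 had adjusted p-values from 0.0967 to 0.272. The mean of the 4 gave a rise of 0.38 (adjusted p = 0.0296). The brightest probe set is of the s_at kind, which can match transcripts of more than 1 gene. With any 1 array left out HOXB3 did not pass, and without either control array 0 of 18132 genes passed in limma (4428 and 4102 at an unadjusted p under 0.05). The difference was 0.54 without control replicate 1 (adjusted p = 0.141) and 0.74 without control replicate 2 (adjusted p = 0.147). It was 0.67 without NeuroD2 replicate 1 (adjusted p = 0.173) and 0.61 without NeuroD2 replicate 2 (adjusted p = 0.190).

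Across the family 1 of 27 genes rose, 0 fell and 26 did not pass. Of all genes 4.77% passed, 1.81% higher and 2.96% lower, so the HOX count was near the background. At an unadjusted p under 0.05, 3 were higher (HOXB3, HOXC5, HOXD10) and 3 lower (HOXB5, HOXB6, HOXC13), together 22.2% of the family against 21.8% of all genes (9.27% higher and 12.5% lower). The 2 groups did not overlap in 16 of the 27, 6 higher and 10 lower with NeuroD2, or 59.3% against 50.8% of all genes (24.2% higher and 26.6% lower). The median difference was -0.07 over the HOX genes and 0.00 over all genes, and the median absolute difference was 0.13 and 0.11. The 26 genes that did not pass differed by -0.36 to 0.24. Their 95% intervals reached no lower than -0.61 and no higher than 0.43, and 21 of the 26 intervals lay within 0.5 of 0 on both sides. A test that was not passed does not show that a gene was unchanged within those intervals.

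**Figure D2:**
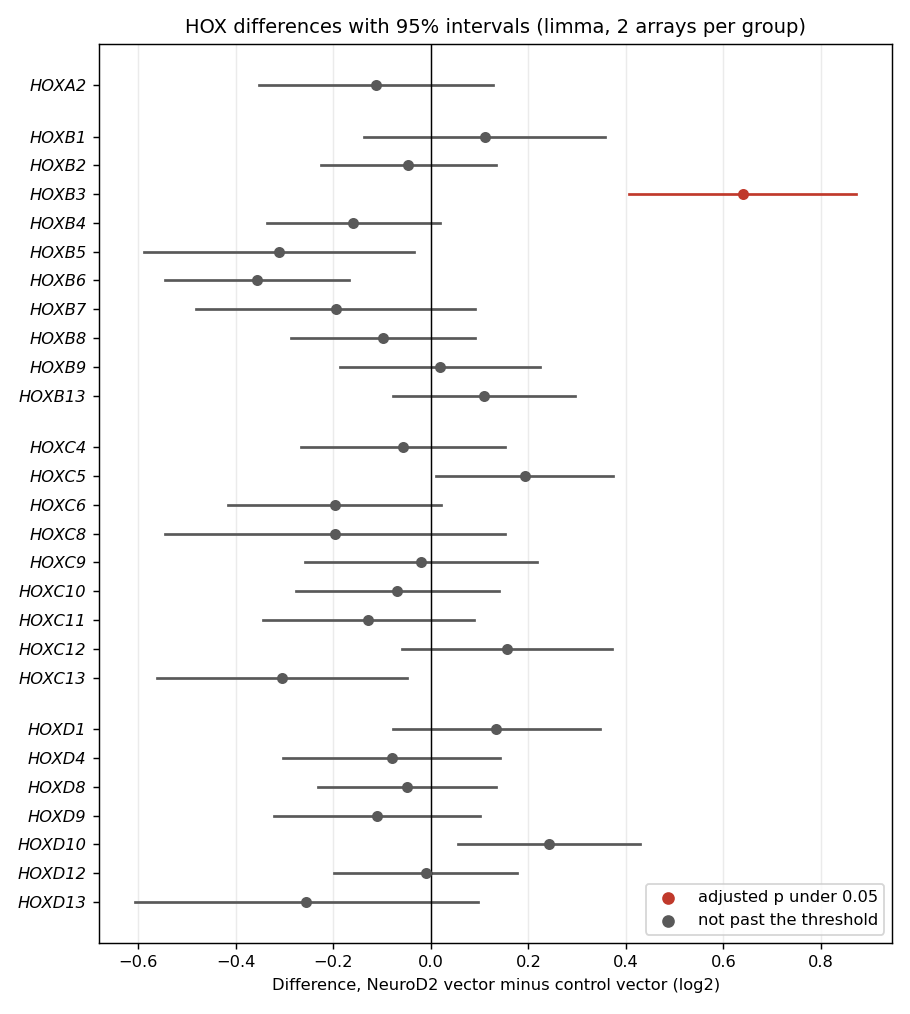
Log2 difference, NeuroD2 vector minus control vector (x axis), with 95% intervals for each of 27 HOX genes (y axis, by cluster and paralog number), from limma on 2 arrays per group. HOXB3 at 0.64 is the gene past the adjusted threshold, and the other 26 lie between -0.36 and 0.24.

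**Figure D3:**
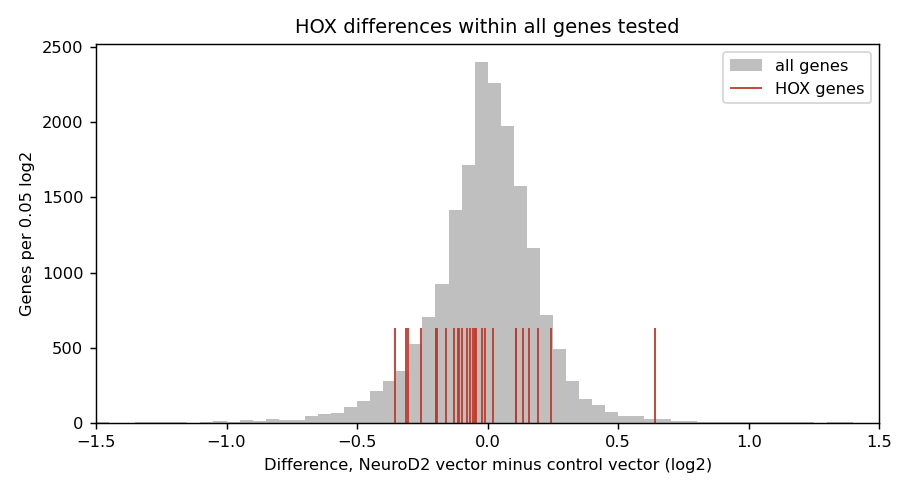
Number of genes per 0.05 log2 of difference, NeuroD2 vector minus control vector, for all 18132 genes (grey), with the 27 HOX genes as red lines. The plot ends at 1.5 in both directions and leaves out 21 genes. All HOX genes but HOXB3 lie within the central mass, between -0.36 and 0.24.

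Around HOXB3, the neighbouring HOXB genes gave smaller differences of the other sign. HOXB4, a regulator of blood stem cells whose gene lies inside the HOXB3 span, was at 8.07 and 8.10 on the NeuroD2 arrays, against 8.23 and 8.26 on the control arrays. These groups did not overlap, and the difference of -0.16 did not pass (adjusted p = 0.275). HOXB2, which helps to specify facial motor neurons in mouse, was at 10.26 and 10.24 with NeuroD2, against 10.27 and 10.32 in controls, a difference of -0.05 (adjusted p = 0.782).

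HOXB6 lay closest to the threshold among the genes that did not pass. It was at 8.80 and 8.74 on the NeuroD2 arrays, against 9.16 and 9.09 on the control arrays, with no overlap. The difference was -0.36 (95% interval -0.54 to -0.17, adjusted p = 0.0609 by limma). It passed with an intensity trend in limma (adjusted p = 0.0131), in a fit limited to genes no dimmer than the median gene (adjusted p = 0.0126), and when each gene was the average of its probe sets (adjusted p = 0.0339). HOXB6 has a single probe set, so the last change came from the other genes of that fit. It did not pass in limma with the replicate number as a block (adjusted p = 0.0912) or among all probe sets (adjusted p = 0.0809). Quantile normalization, median scaling and a robust prior did not bring it past the threshold either. With 1 array left out the HOXB6 difference ran from -0.39 to -0.32. HOXB5, the next gene toward HOXB3, was at 4.45 and 4.21 with NeuroD2, against 4.56 and 4.73 in controls (difference -0.31, adjusted p = 0.186). Its 3 probe sets differed by -0.31, -0.18 and 0.02. HOXB7 (-0.19) and HOXB8 (-0.10) did not pass, nor did HOXB9 (0.02), HOXB13 (0.11), which marks prostate epithelium, or HOXB1 (0.11), a gene of rhombomere identity in mouse.

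In the HOXC cluster 0 of 9 genes passed, 2 with a positive and 7 with a negative difference. HOXC6, a gene of thoracic identity, was at 8.67 and 8.73 on the NeuroD2 arrays, against 8.81 and 8.98 on the control arrays. The groups did not overlap, and the difference of -0.20 did not pass (adjusted p = 0.271). A second probe set of HOXC6 differed by -0.30 and the third by -0.14, so all 3 had the same sign. HOXC5, which shares a gene start with HOXC6, was at 7.02 and 6.95 with NeuroD2, against 6.78 and 6.80 in controls, a difference of 0.19 in the other direction (adjusted p = 0.207). HOXC4, the third gene at that start, had overlapping groups and a difference of -0.06. Because these genes overlap in the annotation, a probe set named for one may read exons of another.

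None of the posterior HOXC genes passed. HOXC13, which acts in hair and nail formation, was at 5.13 and 4.98 on the NeuroD2 arrays, against 5.47 and 5.25 on the control arrays. The control arrays were both higher, and the difference of -0.30 did not pass (adjusted p = 0.168; -0.20 without control replicate 1). HOXC8 was at 6.25 and 6.05 with NeuroD2, against 6.16 and 6.53 in controls. Its groups overlapped, the difference was -0.20 (adjusted p = 0.486), and its second probe set differed by 0.10. Its difference was -0.38 without control replicate 1, -0.01 without control replicate 2 and -0.10 without NeuroD2 replicate 2. HOXC9, HOXC10, HOXC11 and HOXC12 differed by -0.02, -0.07, -0.13 and 0.16, and none passed.

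In the HOXD cluster 0 of 7 genes passed, 2 with a positive and 5 with a negative difference. HOXD10, which marks lumbar motor neurons and is a known target of the MIR10B microRNA, was at 8.10 and 8.18 on the NeuroD2 arrays, against 7.88 and 7.91 on the control arrays. The groups did not overlap, and the difference was 0.24 (95% interval 0.06 to 0.43, adjusted p = 0.140). It passed in a fit limited to genes no dimmer than the median gene (adjusted p = 0.0402), which held 9 HOX genes. Its second probe set differed by 0.08 with overlapping groups.

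HOXD8 was at 9.06 and 9.06 with NeuroD2, against 9.07 and 9.14 in controls (difference -0.05, 95% interval -0.23 to 0.13). HOXD13, a gene of digit formation, was at 4.17 and 4.57 with NeuroD2, against 4.69 and 4.56 in controls. Among the brightest probe sets of the HOX genes, the spread between its NeuroD2 arrays was the largest within either group, at 0.40. The HOXD13 difference of -0.25 did not pass (adjusted p = 0.371 by limma). It was -0.05 without NeuroD2 replicate 1 and -0.45 without NeuroD2 replicate 2. HOXD9 differed by -0.11 on its brightest probe set. Its second probe set, at a mean of 4.71 with NeuroD2, differed by -0.34 with no overlap (adjusted p = 0.0832 among all probe sets). HOXD1 (0.13), HOXD4 (-0.08) and HOXD12 (-0.01) did not pass. HOXA2, a patterning gene of the hindbrain and second pharyngeal arch, was at 5.15 and 4.94 with NeuroD2, against 5.12 and 5.19 in controls (difference -0.11, adjusted p = 0.573). The HOXA2 difference was -0.22 without NeuroD2 replicate 1 and -0.0043 without NeuroD2 replicate 2.

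**Figure D4:**
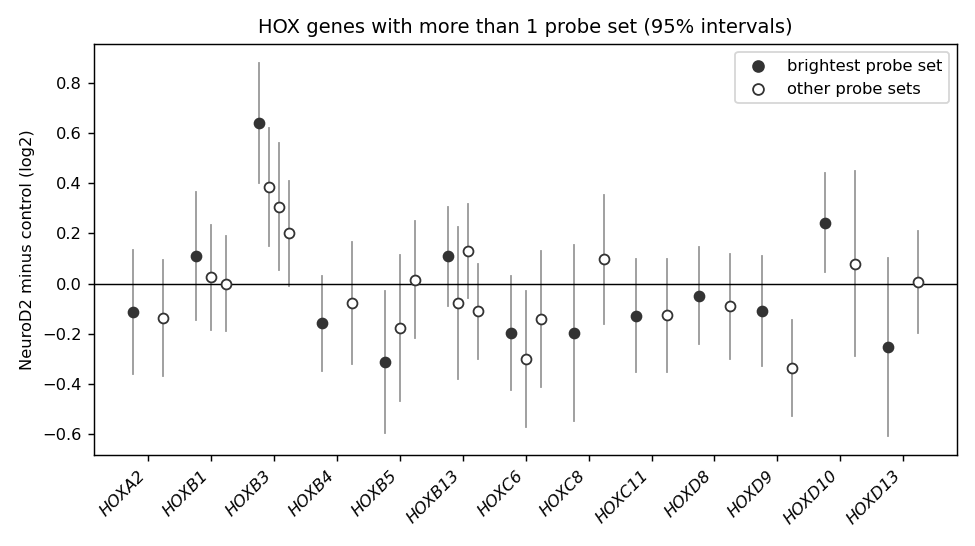
Log2 difference, NeuroD2 vector minus control vector (y axis), with 95% intervals for every probe set of 13 HOX genes that have more than 1 (x axis), in a fit of all probe sets. Filled points are the brightest probe set of a gene, and open points the others. The 4 HOXB3 probe sets lie at 0.20 to 0.64, and those of HOXB13 fall on both sides of 0.

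Read by paralog number, the differences were not spread evenly in sign. Of 11 genes with numbers 4 to 8, 10 had a negative difference, the exception being HOXC5 (median -0.16). Of 5 genes numbered 1 to 3, 2 were negative (median 0.11), and of 11 genes numbered 9 to 13, 7 were negative (median -0.02). Over all HOX genes 19 of 27 were negative, against 50% of all genes. With 1 array left out, 16 to 20 of the 27 and 9 to 10 of the 11 were negative, while the share of all genes ran from 45.3% to 54.6%. None of the 11 genes numbered 4 to 8 passed the test, and these counts were not tested against other genes. The ranges of paralog numbers were not among the planned comparisons. The genes were read on the same arrays and some overlap in the annotation, so their signs are not independent. Of 10 paralog numbers with more than 1 measured member, 5 had the same sign in all members and 5 did not. Those of mixed sign were number 5 (HOXB5 -0.31, HOXC5 0.19), number 9 (HOXB9 0.02, HOXC9 -0.02, HOXD9 -0.11), number 10 (HOXC10 -0.07, HOXD10 0.24), number 12 (HOXC12 0.16, HOXD12 -0.01) and number 13 (HOXB13 0.11, HOXC13 -0.30, HOXD13 -0.25). Numbers 2, 4, 6 and 8 were negative throughout and number 1 positive. Of the 13 genes with more than 1 probe set, 8 had the same sign on every probe set. The 5 that did not were HOXB1, where 1 probe set was at 0.00, HOXB5, HOXB13, HOXC8 and HOXD13.

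No gene for a HOX partner passed the test. Of 8 measured TALE cofactors (PBX, MEIS and PKNOX genes) 0 passed, with a median of -0.07. PBX2 was at 7.04 and 7.06 on the NeuroD2 arrays, against 7.30 and 7.21 on the control arrays (difference -0.21, adjusted p = 0.198). MEIS1 was at 5.58 and 5.65 with NeuroD2, against 5.87 and 5.72 in controls (difference -0.18, adjusted p = 0.295). The groups did not overlap for either gene. Of 6 CDX and ParaHox genes, relatives of the HOX clusters that act in the caudal embryo and gut, 0 passed. GSX1 differed by -0.24 and CDX2 by 0.16 (adjusted p = 0.321 and 0.346).

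Counts in the lists of HOX regulators were small and stand beside the same share of all genes called, 4.77% (1.81% higher, 2.96% lower). Of 23 Polycomb genes 1 rose, 2 fell and 20 did not pass (median -0.03). JARID2, an accessory subunit that guides Polycomb repressive complex 2 to DNA, was at 7.75 and 7.56 on the NeuroD2 arrays, against 6.88 and 6.90 on the control arrays. It rose by 0.77, or 1.70-fold (95% interval 0.55 to 0.99 on the log2 scale, adjusted p = 0.0151 by limma). RBBP4, a histone-binding subunit shared by several chromatin complexes, was at 10.65 and 10.55 with NeuroD2, against 11.03 and 10.99 in controls, and fell by 0.42 (adjusted p = 0.0445). PCGF2, a subunit of Polycomb repressive complex 1, was at 9.13 and 9.07 with NeuroD2, against 9.49 and 9.53 in controls, and fell by 0.41 (adjusted p = 0.0408). The brightest probe sets of JARID2 and RBBP4 are of the s_at kind, as for HOXB3. The catalytic subunit gene EZH2, named after its value was seen, differed by -0.38 and did not pass (adjusted p = 0.0591 by limma).

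Of 19 genes for MLL proteins and other activators of HOX transcription, 2 rose, 0 fell and 17 did not pass (median 0.06), beside 1.81% of all genes higher and 2.96% lower. DOT1L, a histone methyltransferase active on HOX genes in leukaemia, was at 8.08 and 8.06 on the NeuroD2 arrays, against 7.71 and 7.61 on the control arrays, and rose by 0.41 (adjusted p = 0.0451). BRPF1, a scaffold of the acetyltransferase complex that maintains hox expression in zebrafish, was at 7.44 and 7.46 with NeuroD2, against 7.05 and 7.05 in controls, and rose by 0.40 (adjusted p = 0.0408). KMT2A itself, named after its value was seen, differed by 0.20 (adjusted p = 0.266). RBBP4, PCGF2, DOT1L and BRPF1 did not pass with any 1 array left out, nor did JARID2 (adjusted p from 0.068 to 0.148). When every probe set was tested singly, RBBP4, PCGF2, DOT1L and BRPF1 did not pass either (adjusted p from 0.0557 to 0.0618), and JARID2 passed. With probe sets averaged, RBBP4 (-0.29, adjusted p = 0.0537), PCGF2 (-0.29, adjusted p = 0.0788) and DOT1L (0.31, adjusted p = 0.0556) did not pass.

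In the retinoic acid pathway 1 gene passed. Of 16 measured genes 1 rose and 15 did not pass (median 0.06), a count near the 4.77% of all genes called. CYP26B1, an enzyme that degrades retinoic acid, was at 7.19 and 7.23 on the NeuroD2 arrays, against 6.15 and 6.05 on the control arrays. On the brighter of its 2 probe sets it rose by 1.10, or 2.15-fold (95% interval 0.91 to 1.30 on the log2 scale, adjusted p = 0.0045 by limma). The average of the 2 rose by 0.56 (adjusted p = 0.0137 by limma). The other probe set therefore differed much less than the brightest, and its own value is not given here. Without control replicate 1 the difference was 1.15 (adjusted p = 0.141) and without control replicate 2 it was 1.05 (adjusted p = 0.147), in fits where 0 of 18132 genes passed. It passed without either NeuroD2 array. The receptor genes RARA (0.07), RARB (-0.12) and RARG (0.08) did not pass. ALDH1A3, which makes retinoic acid, was at 12.98 ± 0.10 with NeuroD2 and 12.61 ± 0.01 in controls (SD, n = 2 each). Its difference of 0.37 did not pass (adjusted p = 0.0659 by limma). The receptor genes and ALDH1A3 were named outside the naming rule given below.

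**Figure D5:**
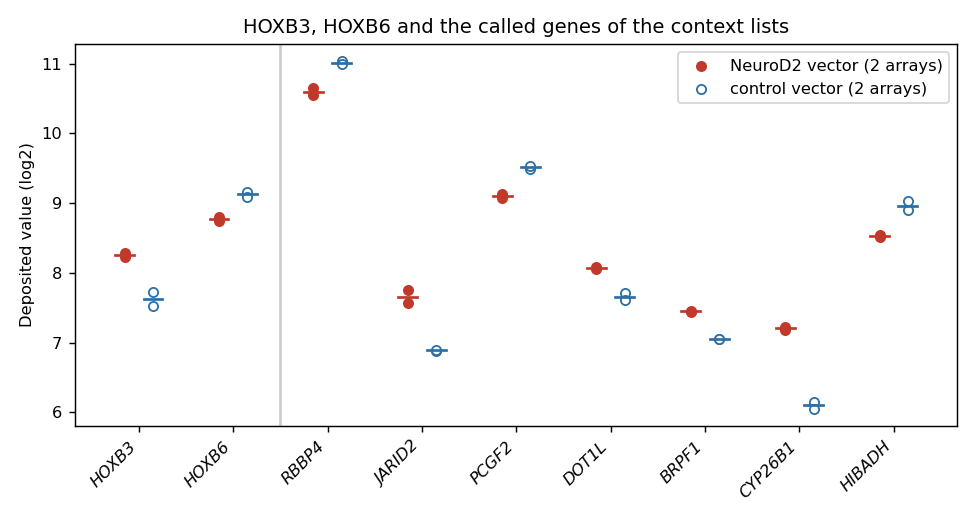
Deposited log2 value (y axis) of HOXB3 and HOXB6 and, right of the grey line, of the 7 genes of the regulator and flanking lists that passed the test (x axis). Filled points are the 2 NeuroD2 arrays, open points right of them the 2 control arrays, and short lines the means. The groups do not overlap for any gene shown, as for 50.8% of all genes. The genes were picked for passing or nearing the threshold, so this lack of overlap adds no support. CYP26B1 has the widest gap, 1.10.

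Of 20 genes flanking the clusters 1 fell, 0 rose and 19 did not pass (median -0.06), a count near the 4.77% of all genes called. The gene that fell, HIBADH, encodes an enzyme of valine breakdown and lies beyond the HOXA cluster. It was at 8.51 and 8.54 on the NeuroD2 arrays, against 9.02 and 8.89 on the control arrays, and fell by 0.43 (adjusted p = 0.0447). It did not pass with quantile normalization (adjusted p = 0.0503) or with any 1 array left out. On the HOXB side, SKAP1 (-0.06), PRAC1 (-0.11), CALCOCO2 (-0.06), SNX11 (-0.02), CBX1 (-0.19) and TTLL6 (0.10) did not pass. Of the noncoding transcripts listed for the clusters, 1 was measured. HOXB-AS3, which runs antisense near HOXB5 and HOXB6, was at 5.45 and 5.20 with NeuroD2, against 5.44 and 5.39 in controls (difference -0.09, adjusted p = 0.699).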

How the data were processed

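Samples were grouped by their titles, 2 arrays per group. The authors deposited 49395 probe set values per array, taken to be log2 from their range (2.65 to 14.3; array medians 5.98 to 5.99); normalization between arrays is read from those medians, and the software and methods are not given here in any source used. Arrays have no read depth, and their number limits the precision. Probe sets were named by the platform annotation; those with 1 symbol gave 18132 genes. limma 3.58.1 in R 4.3.3 (lmFit, eBayes, group only, two-sided, 2 residual and 3.84 prior degrees of freedom) was fitted to all genes, with Benjamini-Hochberg adjustment over all of them and a threshold of 0.05. An exact permutation test was not used, since 2 against 2 cannot reach the threshold.

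The members and lists were chosen with earlier results of these data known. By rule, genes named are NEUROD2, HOX genes past the threshold and the 2 largest absolute differences per cluster. Of each list the rule names members past the threshold or, if none, the 2 largest. Other HOX genes are given to account for all members. Named outside the rule are the cell type markers, EZH2, KMT2A, RARA, RARB, RARG, ALDH1A3 and the HOXB-side flanking genes. The fit for 2 against 2 arrays was tried on simulated data (10 draws of 18132 genes, 100 changed at each size). It recovered 7.4% of genes changed by 0.5 and 88.8% of those changed by 1. Far fewer genes were changed there than the 864 called in these data. Recovery after adjustment depends on that share, so these rates do not carry over to these arrays. Alternatives were each array left out, the replicate number as a block, quantile and median scaling, an intensity trend, a robust prior, genes no dimmer than the median gene, and the mean of or every probe set.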

Additional observations from a re-analysis of the deposited data

Results flagged for a closer look

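A probe set that the platform gives to both HOXD10 and HOXD11, and that entered no comparison, was at 7.57 and 7.66 (log2) on the NeuroD2 arrays, against 7.44 and 7.44 on the control arrays. Both NeuroD2 arrays were above both controls, by 0.17 on average, and this difference was not tested.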

How the results depend on the processing

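With 1 array left out, the genes called over the whole array numbered 0 to 37 higher and 0 to 29 lower, against 328 and 536 on all 4; HOX calls were 0 in each case, and calls in the lists of regulators, flanks and relatives were 0 to 1 in place of 7. Those fits had 2140 to 4428 genes at an unadjusted limma p under 0.05, of which 3 to 5 were HOX genes. With the replicate number as a block, 135 genes were higher and 200 lower, HOXB3 still passed (adjusted p = 0.0453), and list calls were 2; RBBP4, PCGF2, DOT1L, BRPF1 and HIBADH did not pass. The labels give only a shared number, and deviations of the replicates numbered 1 correlated at r = 0.08 across genes. With an intensity trend 763 genes were higher and 1293 lower, with 1 HOX gene lower (HOXB6) and 11 list calls. Limited to genes no dimmer than the median gene, 799 were higher and 1282 lower, with 2 HOX genes higher (HOXB3, HOXD10), 1 lower (HOXB6) and 13 list calls. With the mean of probe sets 1 HOX gene was lower, HOXB6. Tested singly, 594 probe sets were higher, and RBBP4, PCGF2, DOT1L, BRPF1 and HIBADH did not pass. HOXB-AS3 ran from -0.21 to 0.04 with 1 array left out, the sign changing without NeuroD2 replicate 2. NEUROD2 did not pass without control replicate 1 or control replicate 2. The cause of these changes was not tested. Over all alternatives the HOXB3 difference ran from 0.38 to 0.74. Quantile normalization, median scaling and a robust prior kept each HOX call.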

Other observations

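Some deposited values repeat exactly. HOXD12 had the same value to every deposited decimal on both NeuroD2 arrays (3.24), as did the dimmest HOXB1 probe set on both control arrays (3.56). Such a repeat within a group occurred in 569 of 44988 probe sets (1.26%). The spread between replicates is then 0 for that group and is no measure of its error.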
